A study of Mus musculus with 12 samples.

Results

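The 34 genes described here belong to the unfolded protein response and the integrated stress response of the mouse. They were taken by symbol from both count tables, each of which holds 32190 symbols, and all 34 had enough counts for a test in both. By role they comprise 7 stress sensors and transcription factors, 13 chaperones and folding enzymes of the endoplasmic reticulum (ER), 4 genes of ER-associated degradation, 4 effectors of the stress response, and 6 enzymes of serine, folate-cycle and asparagine synthesis. The RNA-seq libraries numbered 12, in 6 groups of 2. Tumoral dendritic cells (DCs) had been sorted from MC38 tumors, a mouse colon carcinoma line, at an early (day 7) and a late (day 14) stage in Zbtb46-Tdtomato mice, whose reporter follows a transcription factor of conventional DCs. Bone marrow-derived DCs (BMDCs) carried the genotype label WT or Pde5 knockout, and of each genotype 1 group was left unstimulated and 1 received 200 ng/ml lipopolysaccharide (LPS), a bacterial ligand of Toll-like receptor 4, for 12 h. For BMDCs a time of 9 days is also labelled. The labelled cell type is immune cells throughout. The sources used here do not state the age of the mice, the deleted part of Pde5 or whether replicates were separate animals, so a p-value covers only the spread of these samples, which may be technical.

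Protein folding in the ER is watched by membrane sensors: IRE1 (Ern1), which splices the mRNA of the transcription factor XBP1, PERK (Eif2ak3), which phosphorylates eIF2alpha, and ATF6, which is cut in the Golgi to release a transcription factor. XBP1 and ATF6 raise chaperones and degradation genes, while eIF2alpha phosphorylation, by PERK or by kinases that sense amino acid shortage, double-stranded RNA or haem shortage, favours translation of ATF4 and thereby asparagine, serine and folate-cycle enzymes, CHOP (Ddit3), TRIB3 and CHAC1. In DCs the IRE1-XBP1 branch is known to be active without added stress, above all in the cross-presenting subset. Much of this control acts on splicing, translation and protein cleavage, which gene-level counts do not show.

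Several of these genes carry, just upstream of their start, the elements through which the 2 branches are read. Stretches are shown for members whose counts are described below, so that members sharing an element can be compared. The ER stress response element, searched as CCAAT, 9 free bases and CCACG on both strands of the RefSeq promoter windows (GRCm38.p6, 250 bases before to 50 after the start), was found in 8 of the 31 members that have a window, or 25.8%, against 0.137% of all 27025 genes. Of these 8, 7 were among the 11 chaperones with a window, and the other was Syvn1. Each stretch reads 5′ to 3′ along the gene's strand, with the fixed letters of the element in capitals.
Hspa5: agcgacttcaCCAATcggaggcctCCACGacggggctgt
Dnajc3: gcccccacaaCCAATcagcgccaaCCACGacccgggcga
Pdia6: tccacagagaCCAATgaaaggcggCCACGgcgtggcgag
Calr: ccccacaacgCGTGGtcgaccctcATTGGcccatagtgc
The stretches lie at chr2:34772015-34772053 (Hspa5, plus strand), chr14:118937817-118937855 (Dnajc3, plus strand), chr12:17266481-17266519 (Pdia6, plus strand) and chr8:84847065-84847103 (Calr, minus strand, with the element on the opposite strand of the gene). The C/EBP-ATF composite element to which ATF4 binds, searched by its core TGATGNAA on both strands, was found in 4 of 31 members (Herpud1, Trib3, Chac1 and Asns), or 12.9%, against 4.51% of all genes. The 3 that lie before the start are shown with the core in capitals, apart from its free letter.
Chac1: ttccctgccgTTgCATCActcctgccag
Asns: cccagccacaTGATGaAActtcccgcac
Herpud1: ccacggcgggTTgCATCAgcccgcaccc
These lie at chr2:119351039-119351066 (Chac1, plus strand), chr6:7693215-7693242 (Asns, minus strand) and chr8:94386307-94386334 (Herpud1, plus strand). The core of the unfolded protein response element, TGACGTGG, was in 0 of 31 windows and in 0.714% of all genes. The motifs do not overlap in the stretches shown, and a match is a string of letters, not a measured binding site.

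Library totals were 14.2 to 19.3 M counts for tumoral DCs against 16.1 to 19.7 M for BMDCs, and the 34 genes together took 0.714 to 0.781% and 0.403 to 0.575% of the counts. The targeted gene, Pde5a, had 37 and 55 counts in unstimulated WT BMDCs, 47 and 61 in those labelled knockout, 20 and 52 in WT with LPS and 22 and 43 in knockout-labelled with LPS. These counts do not separate the genotype labels, so the groups are called knockout-labelled throughout. The 15 conventional DC markers summed to 17099 to 25053 CPM (counts scaled to a fixed library total) in tumoral DCs and 26195 to 31616 in BMDCs. The reporter gene Zbtb46, 1 of the 15, stood at 21.8 to 44.1 CPM in tumoral DCs and at 124 to 254 in BMDCs. In BMDCs, unstimulated WT replicate 2 was the highest of the 8 libraries for 19 of the 34 genes, including 10 of the 13 chaperones. The share of all genes that are highest in this library was not computed, so the count is not read as particular to these genes. Results that rest on this library are given with and without it.

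To compare levels between genes, CPM were divided by exon length (CPM per kb). On this scale Calr, the lectin chaperone calreticulin, ranked first among the 34 genes in all 6 groups, with 429 ± 10.6 in early and 456 ± 55.8 in late tumoral DCs (SD, n = 2 in each group). In BMDCs its level was 279 ± 23.2 in unstimulated WT and 139 ± 9.00 in knockout-labelled cells with LPS. Hspa5, the HSP70 chaperone BiP, ranked next in every group but the 2 given LPS, where Edem1 also stood above it, at 345 ± 57.3 in early and 363 ± 9.70 in late tumoral DCs against 87.4 ± 3.22 to 133 ± 20.9 in the BMDC groups. At the low end stood Chac1, a glutathione-degrading enzyme, at 0.602 to 5.86, and Trib3, a pseudokinase induced by ATF4, at 1.47 to 10.5. Mthfd2, a mitochondrial folate enzyme, had the opposite order of Hspa5, with 20.8 to 20.9 in tumoral DCs and 62.4 to 70.7 in BMDCs. The 2 experiments differ in source, sorting and culture and were scaled apart, so these levels are set side by side without a test.

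**Figure D1:**
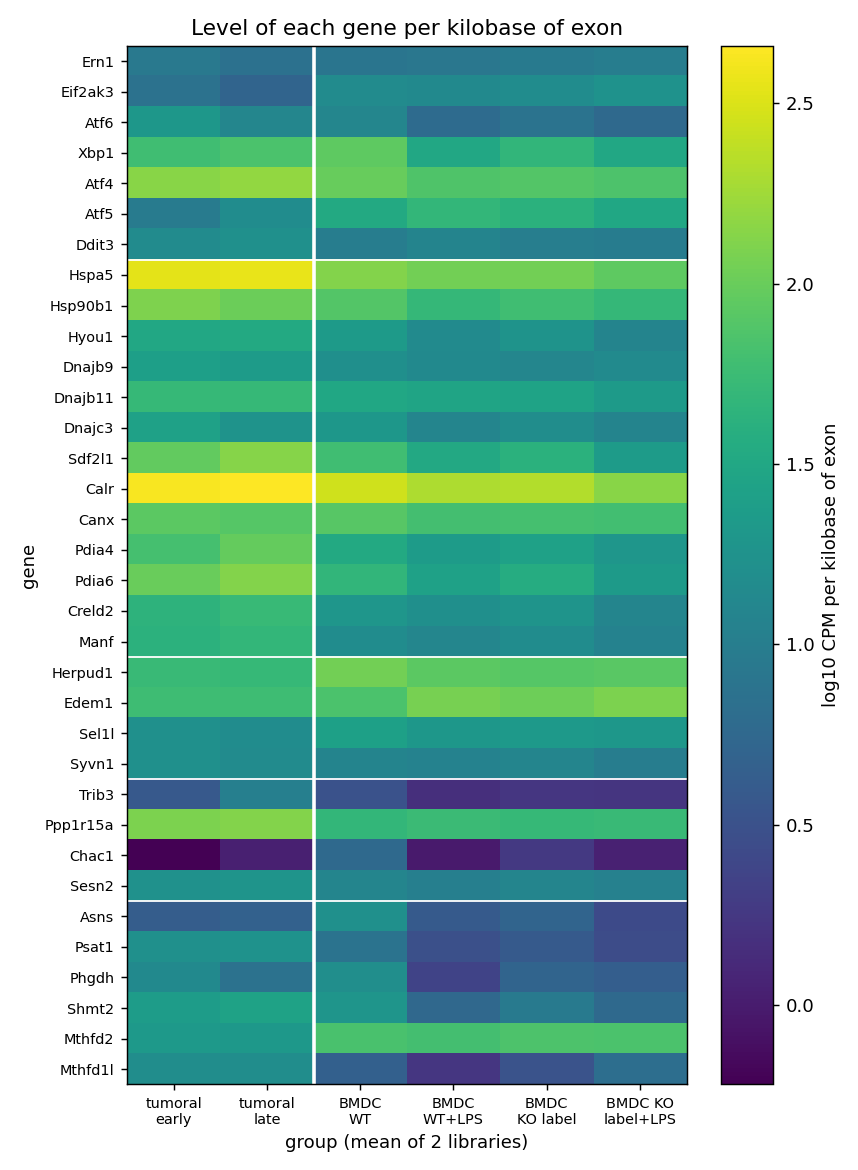
Levels of the 34 stress response genes in the 6 groups, as the mean CPM per kb of exon of the 2 libraries of each group on a log scale. Calr is the highest in every group, and Chac1 and Trib3 are the lowest pair in 4 of the 6.

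LPS in WT BMDCs lowered a block of amino acid and folate genes and part of the chaperones, and raised Edem1 and Atf5. Ddit3 was called higher too, but its call did not hold under several other scalings, filters and tools. In edgeR's quasi-likelihood test with Benjamini-Hochberg adjustment over all 13072 genes (called at an adjusted p under 0.05), 3 members rose, 14 fell and 17 were not called, against 37.6% of all genes called. By direction, all genes were called higher in 20.0% and lower in 17.6%. The median log2 fold change of the 34 genes was -0.20, against -0.02 for all genes. Scaled by library size alone, 2 members rose and 18 fell, Ddit3 was no longer called, and all genes split into 1689 higher and 3728 lower in place of 2609 and 2301. Values below are normalised CPM (scaled by TMM, the trimmed mean of M values), and a fold change is LPS against none.

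The serine, folate and asparagine enzymes moved most: 5 of 6 fell, with a median log2 fold change of -1.39. Phgdh, the entry enzyme of serine synthesis, stood at 24.2 and 48.8 in the unstimulated libraries and at 5.11 and 6.95 with LPS. Both LPS libraries lay far below both unstimulated ones, a log2 fold change of -2.60 ± 0.49 (SE; edgeR adjusted p = 0.00719). Asns, asparagine synthetase, was at 28.2 and 56.4 without and 10.5 and 12.1 with LPS (log2 fold change -1.90 ± 0.39; edgeR adjusted p = 0.00856). The pairs did not overlap, but the unstimulated pair was far more spread than the LPS pair. Shmt2, the mitochondrial serine hydroxymethyltransferase, fell from 42.4 and 66.8 to 16.7 and 20.1 (-1.57 ± 0.26; edgeR adjusted p = 0.00317), and Psat1, the transaminase that follows Phgdh, from 23.0 and 35.1 to 12.7 and 14.8 (-1.08 ± 0.22; edgeR adjusted p = 0.00593). For both genes the groups were apart, and the unstimulated pair was the more spread of the 2. Mthfd1l, a mitochondrial formate-producing enzyme, fell from 16.6 and 21.3 to 7.78 and 8.48 (-1.22 ± 0.30; edgeR adjusted p = 0.0161). The exception was Mthfd2, at 220 and 213 without and 208 and 253 with LPS, where the groups overlapped.

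Of the 4 effectors, 2 fell. Chac1 dropped from 5.64 and 11.9 to 1.48 and 1.89 (log2 fold change -2.37 ± 0.43; edgeR adjusted p = 0.00381), and Trib3 from 5.64 and 6.81 to 3.98 and 2.62 (-0.91 ± 0.31; edgeR adjusted p = 0.046). Both are low genes. Ppp1r15a, the phosphatase subunit GADD34 that reverses eIF2alpha phosphorylation, and Sesn2, a stress-induced leucine sensor, were not called, at 173 ± 27.6 against 130 ± 25 and 38.6 ± 0.611 against 38.8 ± 5.73 (SD, n = 2 each).

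**Figure D2:**
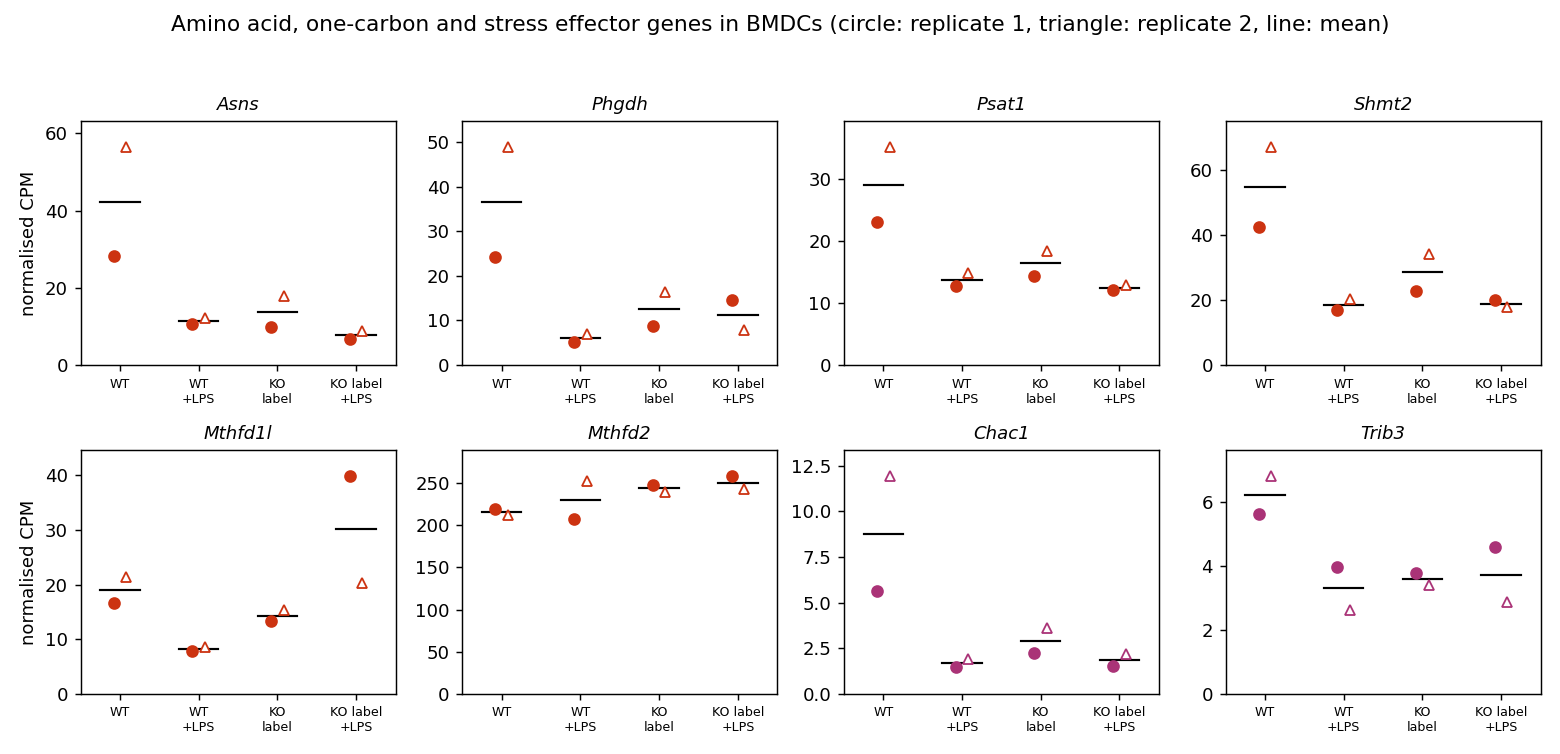
Normalised CPM of 6 serine, folate and asparagine enzymes and of Chac1 and Trib3 in each of the 8 BMDC libraries, with circles for replicate 1, triangles for replicate 2 and a line at the mean of each group. In 5 of the 6 enzymes and in Chac1 both WT libraries with LPS lie below both without, and Mthfd2 overlaps. Mthfd1l has its highest mean in knockout-labelled cells with LPS, where replicate 2 lies below unstimulated WT replicate 2.

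Among the 13 ER chaperones and folding enzymes, 5 fell, 0 rose and 8 were not called, with a median log2 fold change of -0.27. Those that fell were Sdf2l1, an ER chaperone cofactor (from 57.9 and 63.5 to 30.7 and 46.7; -0.65 ± 0.22; edgeR adjusted p = 0.0466), and Pdia6, a disulfide isomerase (from 147 and 182 to 93.0 and 119; -0.64 ± 0.16; edgeR adjusted p = 0.017). Dnajc3, the BiP co-chaperone p58IPK, went from 89.3 and 98.9 to 66.0 and 68.1 (-0.49 ± 0.10; edgeR adjusted p = 0.00524). Hsp90b1, the HSP90 paralog GRP94, went from 264 and 313 to 208 and 222 (-0.42 ± 0.11; edgeR adjusted p = 0.0187), and Hyou1, an HSP70-like nucleotide exchange factor, from 138 and 156 to 106 and 115 (-0.41 ± 0.12; edgeR adjusted p = 0.0247). These 5 fell by less than the serine and asparagine genes, and in each both LPS libraries were the lower ones, as in 18 of all 34 members. Hspa5 itself was not called, at 467 and 567 without and 492 and 510 with LPS, where the LPS pair lay inside the range of the other (-0.05 ± 0.13; edgeR adjusted p = 0.8). Of the 8 members with the ER stress response element, Hsp90b1, Dnajc3 and Pdia6 were called, where 37.6% of all genes were called. Hspa5, Calr (log2 fold change -0.27), Canx, Creld2 and Syvn1 were not.

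Within the sensors and factors, 2 rose, 2 fell and 3 were not called. Xbp1 fell from 208 and 318 to 98.5 and 121 (-1.26 ± 0.22; edgeR adjusted p = 0.00429), and Atf6 from 103 and 109 to 58.0 and 62.2 (-0.82 ± 0.15; edgeR adjusted p = 0.00384). Xbp1 counts join the spliced and unspliced forms. Atf5, an ATF4-related factor that is also translated upon eIF2alpha phosphorylation, rose from 61.8 and 62.9 to 107 and 97.9 (0.72 ± 0.13; edgeR adjusted p = 0.00402), with tight pairs in both groups. Atf5 shares 82 exon bases on the opposite strand with Il4i1 and with Nup62, and the strand setting of the counting is not given. Ddit3 rose from 17.3 and 14.2 to 22.3 and 21.7 (0.48 ± 0.16; edgeR adjusted p = 0.0468), and shares 68 such bases with Mars. Ern1 was not called at 60.6 and 57.4 without and 77.5 and 68.2 with LPS (0.30 ± 0.11; edgeR adjusted p = 0.0533). Eif2ak3 (0.11 ± 0.16; edgeR adjusted p = 0.628) and Atf4 (-0.22 ± 0.16; edgeR adjusted p = 0.299) were not called either, Atf4 lying at 176 and 251 without and 176 and 189 with LPS. Without WT replicate 1, the library at 176, Atf4 was called lower with LPS (-0.46; edgeR adjusted p = 0.0241).

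Of the 4 degradation genes, Edem1, a lectin-like factor that hands misfolded glycoproteins over for disposal, rose from 436 and 389 to 809 and 796 (0.96 ± 0.13; edgeR adjusted p = 0.000982). All LPS values were well above all unstimulated ones. Herpud1, Sel1l and the ubiquitin ligase Syvn1 were not called, with a spread over the 8 BMDC libraries of 1.5-fold, 1.26-fold and 1.2-fold between lowest and highest, against 9.56-fold for Phgdh.

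**Figure D3:**
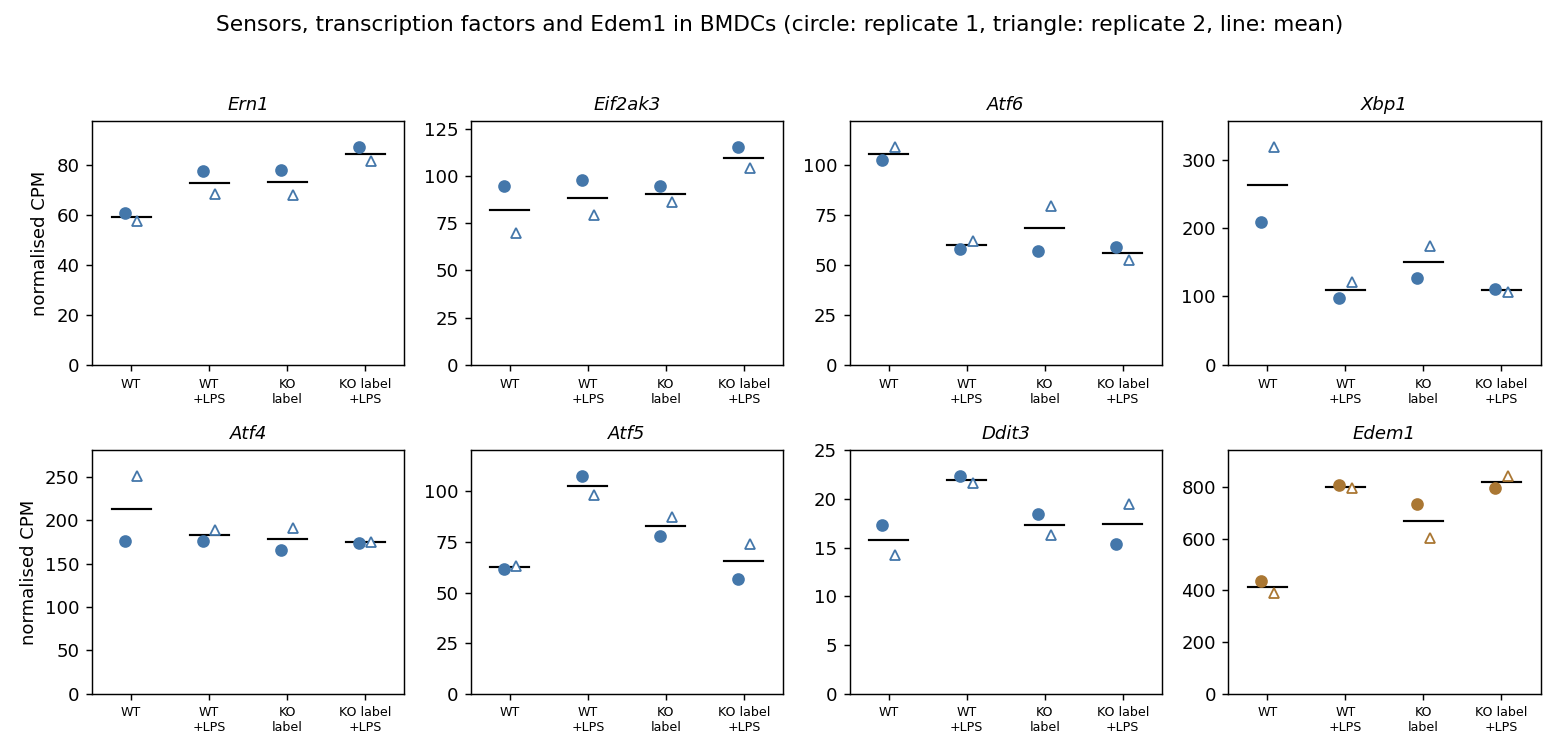
Normalised CPM of the 7 sensors and transcription factors and of Edem1 in each BMDC library, with circles for replicate 1, triangles for replicate 2 and a line at each group mean. Xbp1 and Atf6 are highest in unstimulated WT cells, Edem1 is lowest there, and Atf4 lies between 166 and 191 in all libraries but the high unstimulated WT replicate 2.

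Of the 17 called members, 9 were called in every one of the 17 alternative analyses in which they were tested: Atf6, Xbp1, Atf5, Dnajc3, Edem1, Chac1, Psat1, Phgdh and Shmt2. Lost calls were not particular to the members: over these alternatives 2632 to 5417 of all genes were called, against 4910 in the main fit. With all libraries kept, Ddit3 was not called with upper-quartile scaling, library size alone, a filter of 10 CPM in 2 libraries or DESeq2. The replicate block and the fit of only the 2 groups compared did not call it either. Trib3 was not called with DESeq2 or in that fit, and Sdf2l1 not without the filter or in that fit. Without WT replicate 2, 11 members were called, and Trib3, Sdf2l1, Pdia6, Mthfd1l, Hyou1, Hsp90b1 and Ddit3 were not, while Phgdh stood at -2.00, Asns at -1.32 and Chac1 at -1.74. Without WT LPS replicate 1, 9 members were called, and Asns missed the threshold at -1.81. The summed CPM of 11 neutrophil markers moved with these genes, at 119 and 190 in unstimulated WT, 58.6 and 66.5 in WT with LPS, 88.8 and 98.5 in unstimulated knockout-labelled and 71.8 and 77.4 in knockout-labelled cells with LPS. Of these markers Ly6g and Retnlg were at 0 in all libraries of the other BMDC groups. In unstimulated WT Ly6g reached 0.0592 and Retnlg 0.310 CPM, both near the floor. There, 1 of the 11 markers was at 0 in replicate 2. The plasmacytoid DC markers (9 genes) moved the other way, from 526 and 579 to 1021 and 1120 in WT, and stood at 744 to 975 without and 991 to 1049 with LPS in knockout-labelled cells. The 14 monocyte and macrophage markers summed to 1722 to 2122 without and 1692 to 2188 with LPS in WT, and to 2019 to 2437 without and 869 to 1665 with LPS in knockout-labelled cells, none of them at 0 in a library. For LPS in WT 6 of these 14 were called higher and 1 lower (median log2 fold change 0.88), for the knockout label without LPS 3 were called higher (median 0.86), and for the interaction 1 was called lower (median -1.63). Among all genes 20.0% were called higher and 17.6% lower for LPS in WT, 12.0% higher for the label and 3.91% lower for the interaction. Their part in the results was not tested, and in bulk RNA fewer cells of a type and less RNA per cell cannot be told apart.

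Other genes of the same pathways gave counts beside these, to be read against 37.6% of all genes called. Called shares were 67.6% of the further ATF4 targets, 50% of the folate and 46.7% of the heat shock genes. They were 41.7% of the mitochondrial list, 40% each of the folding and the sensor and eIF2 lists, and 29.4% of the degradation list. Of 34 tested further ATF4 targets, 19 fell and 4 rose, with a median of -0.69. Among them Aldh18a1, a proline synthesis enzyme, fell from 48.9 ± 16.2 to 15.2 ± 2.21 (-1.68 ± 0.24; edgeR adjusted p = 0.00155) and Iars, the cytosolic isoleucyl-tRNA synthetase, from 106 ± 15.3 to 45.9 ± 0.665 (-1.21 ± 0.17; edgeR adjusted p = 0.00143). Ddit4, an inhibitor of mTORC1, and Wars, an interferon-inducible tryptophanyl-tRNA synthetase, rose by 1.60 ± 0.21 (edgeR adjusted p = 0.00115) and 0.87 ± 0.11 (edgeR adjusted p = 0.000773). Of 25 further ER folding genes 7 fell and 3 rose, led by Nucb2 (-1.78) and Txndc5 (-0.61) downward and by Cnpy3 (0.55), a chaperone of Toll-like receptors, and Dnajc10 (0.46) upward. Of 17 further degradation genes 5 rose and 0 fell, among them Nploc4 (0.55) and Os9 (0.54).

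In the sensor and eIF2 list, 4 of 20 rose and 4 fell, with Eif2ak2, the interferon-inducible kinase PKR that senses double-stranded RNA, at 31.9 ± 0.830 without and 134 ± 32.3 with LPS (2.07 ± 0.21; edgeR adjusted p = 0.000524). Tmbim6, a regulator of ER calcium, rose by 0.50, and Creb3l2 and Mbtps2, the protease that completes ATF6 cleavage, had log2 fold changes of -1.34 and -0.58. In the folate list 3 of 12 rose and 3 fell. There Mthfs rose by 1.14 and Aldh1l1, a cytosolic formyltetrahydrofolate dehydrogenase, by 2.22, whereas Sfxn1, a mitochondrial serine transporter, and Mthfd1 had -1.43 and -1.07. Of 15 cytosolic heat shock genes 6 rose, led by Stip1 (0.65) and Dnaja1 (0.56), and 1 fell, the regulator Hsf1 (-0.47). Of 12 mitochondrial chaperones and proteases 4 fell, led by Dnaja3 (-0.48) and Trap1 (-0.65), and 1 rose, Yme1l1 (0.42).

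Knockout-labelled BMDCs without stimulation were compared with the same unstimulated WT libraries that enter the LPS comparison, so the results of both share their controls. Of the 34 genes 1 rose, 6 fell and 27 were not called, against 18.0% of all genes called (12.0% higher and 5.98% lower). The median was -0.24, against -0.01 for all genes. Scaled by library size alone, 1 member rose and 9 fell, and all genes split into 1282 higher and 1301 lower in place of 1575 and 782. Edem1 was the member that rose, at 736 and 601 in knockout-labelled against 436 and 389 in WT cells (0.70 ± 0.13; edgeR adjusted p = 0.00829). The 6 that fell were Asns, Psat1, Shmt2, Chac1, Xbp1 and Atf6.

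Asns stood at 9.92 and 17.7 in the knockout-labelled libraries, below the 28.2 and 56.4 of WT (-1.61 ± 0.38; edgeR adjusted p = 0.0286). Shmt2 stood at 22.7 and 34.2 (-0.94 ± 0.25; edgeR adjusted p = 0.039), and Psat1 at 14.4 and 18.4 (-0.83 ± 0.21; edgeR adjusted p = 0.0316). Each of these pairs lay below the WT pair given above, and in each pair of both genotypes replicate 2 was the higher one. Chac1 was at 2.22 and 3.61 (-1.58 ± 0.40; edgeR adjusted p = 0.03). Xbp1 was at 126 and 173 (-0.81 ± 0.22; edgeR adjusted p = 0.0421), and Atf6 at 57.3 and 79.6 (-0.63 ± 0.15; edgeR adjusted p = 0.0227). Phgdh, at 8.73 and 16.3, did not pass (-1.54 ± 0.46; edgeR adjusted p = 0.06). None of the 13 chaperones was called, Hspa5 having a log2 fold change of -0.17, and neither were Ern1 (0.31), Eif2ak3 (0.14), Atf4 (-0.26) or Ddit3 (0.14).

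The 7 calls were not stable. Calls among all genes also changed, from 576 to 2735 over the alternative analyses, against 2357 in the main fit. Without WT replicate 2 only Edem1 was called, Asns standing at -1.03 and Chac1 at -0.95. Without knockout-labelled replicate 1, 0 were called, at -1.27 for Asns, -1.29 for Chac1, -0.62 for Xbp1, -0.42 for Atf6, -0.67 for Psat1, -0.69 for Shmt2 and 0.53 for Edem1. With only the 4 unstimulated libraries in the fit, which leaves fewer samples to estimate the spread, 0 were called as well, at similar values (-1.62 for Asns, -0.82 for Xbp1 and 0.69 for Edem1). Without WT replicate 1, Atf4 was called lower under the knockout label (-0.49; edgeR adjusted p = 0.0333). Of the 34 further ATF4 targets 10 were lower and 4 higher, Aldh18a1 (-1.25) and Iars (-0.88) being lower and Ddit4 (2.26) and Cebpb (0.75) higher. Called genes made up 41.2% of this list, against 18.0% of all genes. The share was 33.3% in the folate, 20% in the folding, 15% in the sensor and eIF2, and 13.3% in the heat shock list. In the remaining lists, the folding genes gave 1 higher (Cnpy3, 0.42) and 4 lower of 25, led by Spcs3 (-0.59) and Txndc5 (-0.41). The folate genes gave 2 higher of 12, Mthfs (0.91) and Aldh1l1 (1.97), and 2 lower, Shmt1 (-0.69) and Sfxn1 (-0.80). The sensor and eIF2 genes gave 2 higher of 20, Eif2ak2 (1.40) and Mbtps1 (0.42), and 1 lower, Mbtps2 (-0.50). Of 15 heat shock genes 2 were higher, Stip1 (0.44) and Dnajb1 (0.46), and 0 lower. None of 17 degradation genes and 12 mitochondrial chaperones passed, with 3 of each at an unadjusted p under 0.05, against 34.3% of all genes.

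**Figure D4:**
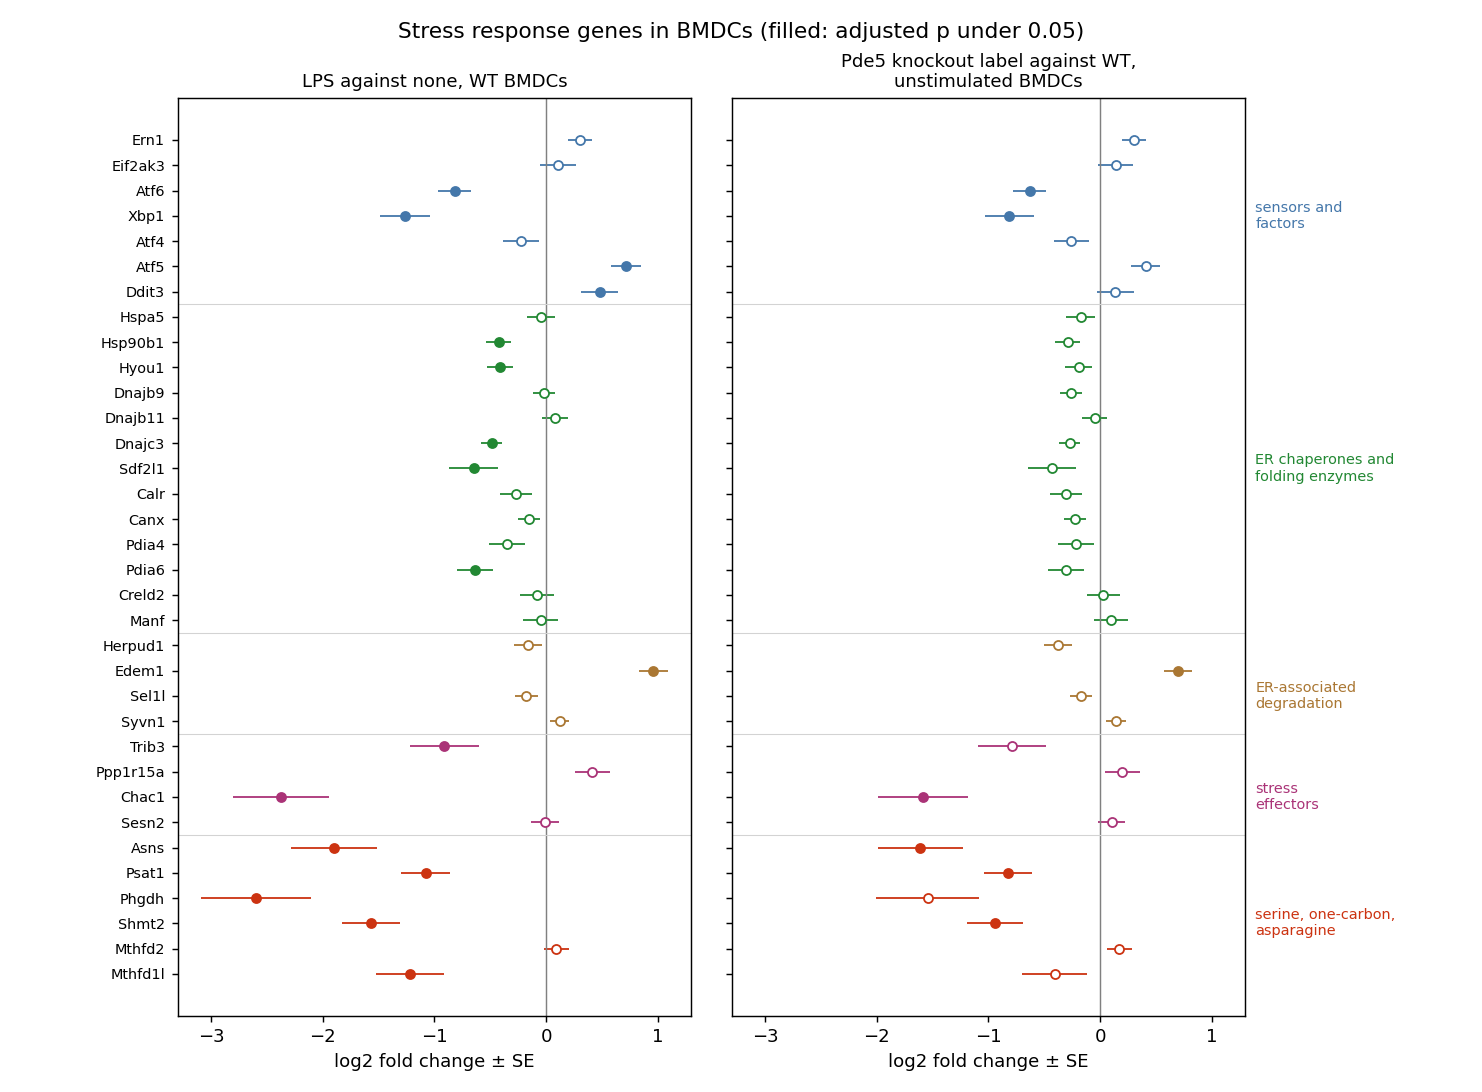
Log2 fold change with its SE for each of the 34 genes, for LPS against none in WT BMDCs (left) and for the knockout label against WT in unstimulated BMDCs (right), ordered by role, with filled points for genes called at an adjusted p under 0.05. The serine, folate and asparagine genes reach -2.60 on the left and -1.61 on the right, Edem1 stands to the right of 0 in both, and both panels share the unstimulated WT libraries.

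In knockout-labelled BMDCs LPS gave 0 called members in edgeR, as 0% of all genes were called. At an unadjusted p under 0.05, 11 of the 34 stood against 21.4% of all genes, limma-voom called 0 members and DESeq2 called 5 (Sdf2l1, Pdia6, Mthfd1l, Hyou1 and Calr). Calls among all genes also changed with the method, from 0 to 766 over the alternative analyses. The 5 smallest p belonged to Hyou1, Pdia6, Creld2, Calr and Mthfd1l. Hyou1 stood at 118 and 140 without and 85.8 and 94.3 with LPS (-0.51 ± 0.12; edgeR adjusted p = 0.0883), and Calr at 526 and 671 without and 396 and 440 with LPS (-0.52 ± 0.14; edgeR adjusted p = 0.107). Pdia6 and Creld2, a disulfide isomerase-like ER protein, had log2 fold changes of -0.61 and -0.55. None of these 4 folding genes passed the threshold. Both LPS libraries were the lower pair in each, but the genes were named for their small p, so this adds no support. Of all 34 members, 18 had both LPS libraries lower, 5 had them higher, and 11 overlapped. The share among all genes was not computed. Mthfd1l had the opposite sign, at 13.3 and 15.3 without and 39.8 and 20.4 with LPS (1.07 ± 0.29; edgeR adjusted p = 0.108), with most of the difference in replicate 1.

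Asns, at 6.6 and 8.75 with LPS, had a log2 fold change of -0.85, and Xbp1, at 111 and 106, one of -0.46, neither called. Atf6 had -0.29, Eif2ak3 0.28, Ern1 0.21, Atf4 -0.03, Ddit3 0.01 and Hspa5 -0.25. In the 7 lists of further pathway genes 0 were called, and 30 of their 135 tested genes (22.2%) had an unadjusted p under 0.05, beside 21.4% of all genes.

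With LPS present, knockout-labelled and WT BMDCs also differed in 0 called members in edgeR, as 0% of all genes were called. At an unadjusted p under 0.05, 8 of the 34 stood against 10.2% of all genes, limma-voom called 0 members and DESeq2 called 3 (Mthfd1l, Calr and Atf5). Over the alternative analyses 0 to 153 of all genes were called. The smallest p belonged to Mthfd1l, at 39.8 and 20.4 against 7.78 and 8.48 in WT (1.89 ± 0.30; edgeR adjusted p = 0.166). Next came Atf5, at 56.5 and 74.1 against 107 and 97.9 (-0.65 ± 0.13; edgeR adjusted p = 0.205), and Calr, at 396 and 440 against 571 and 655 (-0.55 ± 0.14; edgeR adjusted p = 0.299). The pairs of these 3 did not overlap, as in many other members: of all 34, 15 had both knockout-labelled libraries lower, 5 had them higher, and 14 overlapped. Dnajb11, a BiP co-chaperone, and Hspa5 both had -0.38. Xbp1 had -0.01, Atf4 -0.07, Atf6 -0.10, Ern1 0.21, Eif2ak3 0.31 and Ddit3 -0.33.

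Whether LPS acted differently under the 2 genotype labels was tested by their interaction, the LPS effect in knockout-labelled minus that in WT cells. Of the 34 genes 1 was called higher and 1 lower, against 4.48% of all genes called (0.566% higher and 3.91% lower), and 9 had an unadjusted p under 0.05, against 21.3% of all genes. Mthfd1l had an interaction of 2.29 ± 0.42 (edgeR adjusted p = 0.027), being lower with LPS in WT and higher with LPS in the 2 knockout-labelled libraries. Atf5 had -1.06 ± 0.19 (edgeR adjusted p = 0.0211): it rose with LPS in WT, and in knockout-labelled cells stood at 78.0 and 87.4 without and 56.5 and 74.1 with LPS. Both calls were lost without WT replicate 2, without either WT LPS library or without knockout-labelled LPS replicate 1, where Mthfd1l stood at 1.73 and Atf5 at -0.88, and the call of Mthfd1l was also lost without knockout-labelled replicate 1, at 2.22.

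Next by p were Edem1 (-0.67), Phgdh (2.45) and Chac1 (1.73), none of which passed, with edgeR adjusted p of 0.0733, 0.0996 and 0.153. Among the sensors Xbp1 (0.80), Atf6 (0.52), Atf4 (0.19), Eif2ak3 (0.17), Ern1 (-0.10) and Ddit3 (-0.47) did not pass, and Hspa5 had -0.20. The fall of the serine and asparagine genes with LPS was called in WT and not in knockout-labelled cells. In edgeR this fall was not shown to differ between them except for Mthfd1l. DESeq2 also called Phgdh for the interaction, and Edem1 outside these genes. Calls among all genes ran from 45 to 1076 over the alternative analyses of the interaction. Of the further genes, 3 of 34 ATF4 targets had a negative interaction past the threshold, Nupr1 (-2.16), Ddit4 (-1.46) and Cebpb (-1.04), as did Eif2ak2 (-1.62). Among all genes 3.91% were called lower.

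In tumoral DCs none of the 34 genes was called between the late and the early stage in edgeR, where 0.0230% of all 13040 genes were called. Of the 34, 6 had an unadjusted p under 0.05, against 11.0% of all genes, limma-voom called 0 and DESeq2 called 1, Trib3. Over the alternative analyses 0 to 1088 of all genes were called. The median log2 fold change, late against early, was 0.18, against 0.01 for all genes. Trib3 had the smallest p, at 7.99 and 7.51 in the early and 26.1 and 20 in the late libraries (1.57 ± 0.29; edgeR adjusted p = 0.113). Both late libraries were far above both early ones, and the gene passed in 5 of 12 alternative analyses: without the filter on low counts, with DESeq2, with the replicate number as a block, and without either early library, where the lone early library is assumed to vary like the late pair.

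The other members with small p did not pass. Phgdh stood at 38.0 and 29.1 early and 18.8 and 19.4 late (-0.81 ± 0.25; edgeR adjusted p = 0.315), and Atf5 at 19.9 and 15.8 early and 29.3 and 33.4 late (0.81 ± 0.26; edgeR adjusted p = 0.319). Pdia4, a disulfide isomerase, stood at 143 and 155 early and 202 and 275 late (0.68 ± 0.24; edgeR adjusted p = 0.372), and Atf6 at 173 and 187 early and 134 and 105 late (-0.59 ± 0.23; edgeR adjusted p = 0.403). The pairs of these 4 genes did not overlap, but the genes were named for their small p, so this adds no support. Of all 34 members, 9 had both late libraries above the early ones, 4 had them below, and 21 overlapped. The share among all genes was not computed. The spread estimated over all tumoral genes was wide. Hspa5 stood at 1161 and 1687 early and 1512 and 1677 late, with overlapping pairs (0.16 ± 0.26; edgeR adjusted p = 0.842). Xbp1 had 0.34, Atf4 0.25, Ddit3 0.28, Ern1 -0.22 and Eif2ak3 -0.42.

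**Figure D5:**
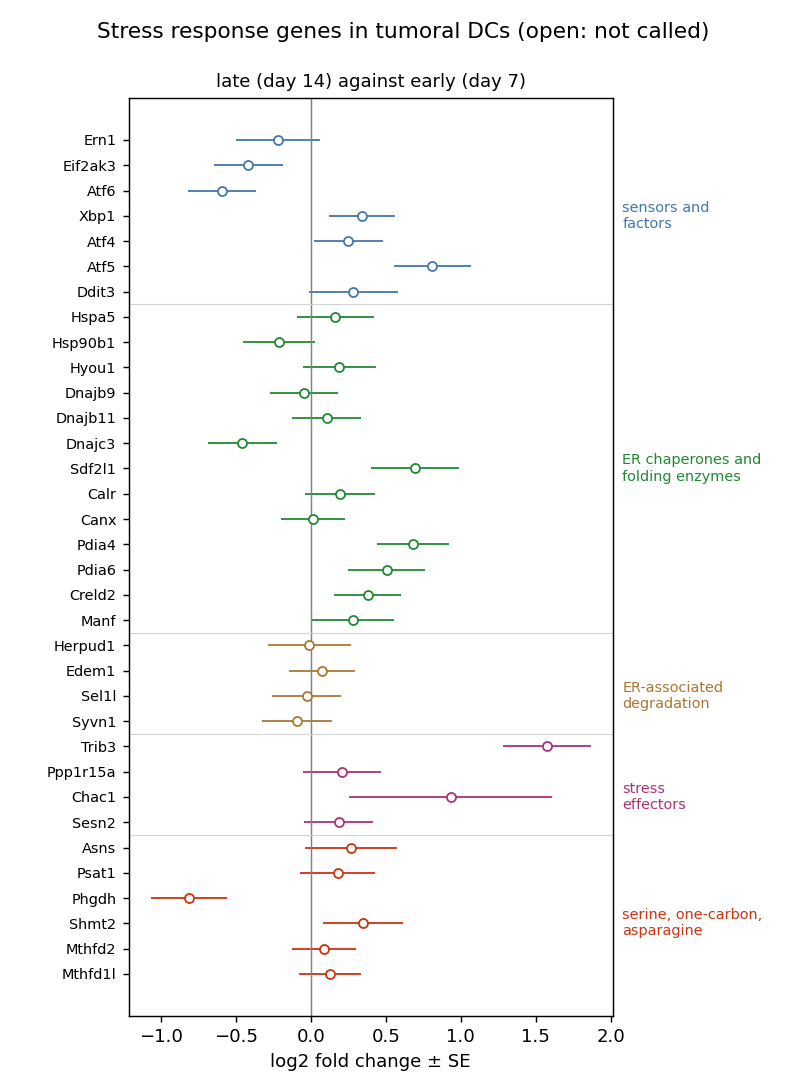
Log2 fold change with its SE of the 34 genes in late (day 14) against early (day 7) tumoral DCs, ordered by role, where open points mark genes not called. Trib3 lies farthest from 0 at 1.57, and Phgdh is the lowest at -0.81.

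Summed markers of other cells differed between the tumor stages in the sorted DCs. The 13 T cell markers summed to 548 to 861 CPM early and 81.3 to 157 late, the 11 NK cell markers to 1141 to 1625 and 144 to 341, and the 12 fibroblast markers to 2439 to 2997 and 1600 to 1998. The 14 monocyte and macrophage markers went from 9277 to 14915 early to 15608 to 17079 late, where 11 had a positive and 3 a negative log2 fold change. In edgeR 1 T cell marker was called lower, and 0 NK cell, fibroblast or monocyte and macrophage markers were called, against 0.0230% of all genes. At an unadjusted p under 0.05 stood 13 T cell, 11 NK cell, 5 fibroblast and 5 monocyte and macrophage markers. The part of these markers' cells in the values of the 34 genes was not tested. None of the 7 lists of further pathway genes had a called gene in this comparison, and 15 of their 135 tested genes (11.1%) had an unadjusted p under 0.05, beside 11.0% of all genes.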

How the data were processed

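RNA-seq counts of 12 mouse libraries were analysed. Per the submitters' processing notes, fastp 0.12.4, HISAT2 2.2.1, featureCounts 2.0.1 and mm10 were used, and the authors deposited raw counts per gene symbol. The sources used here do not state the annotation, the strand setting or the treatment of multi-mapping reads, and the extraction text of the labels speaks of another tissue. All columns were mapped by name (0 unmapped). Each table was fitted apart in R 4.3.3 with edgeR 4.0.16: filterByExpr (minimum count 10), TMM, robust glmQLFit and glmQLFTest with 1 mean per group, and Benjamini-Hochberg adjustment over 13040 tumoral or 13072 BMDC genes, with calls at an adjusted p under 0.05. The biological coefficient of variation was 0.278 in tumoral DCs and 0.138 in BMDCs. SE is the size of a log2 fold change over the root of F. limma 3.58.1 and DESeq2 1.42.0, other scalings and filters, a replicate block, left-out libraries and a fit of 2 groups alone were alternatives. In simulated counts at 2-fold, 22% of changed genes were recovered for the tumoral comparison, 72% for LPS in WT and 48% for the interaction, and unchanged genes made up 16.3%, 6.21% and 12.9% of the calls.

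Members and lists were chosen with earlier results of these data known. In each comparison the called members and Ern1, Eif2ak3, Atf6, Xbp1, Atf4, Ddit3 and Hspa5 are named, with the 5 smallest p where under 3 were called, and up to 2 called genes per direction of each further list, by adjusted p. A gene of the folate list is not reported here. Exon lengths came from GENCODE M21. Exons of 11 members overlap another gene (Eif2ak3, Atf5, Ddit3, Hsp90b1, Dnajb9, Pdia4, Pdia6, Manf, Syvn1, Ppp1r15a and Shmt2) and Calr and Phgdh have a named pseudogene, so their counts are uncertain to that extent.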

Additional observations from a re-analysis of the deposited data

Results flagged for a closer look

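The LPS effect differed between the genotype labels, by an interaction term in edgeR, in 2 members and in 4 further genes of the pathway lists (knockout-labelled minus WT, log2). The members were Mthfd1l (2.29 ± 0.42) and Atf5 (-1.06 ± 0.19). The further genes were Nupr1 (-2.16 ± 0.49), Eif2ak2 (-1.62 ± 0.29), Ddit4 (-1.46 ± 0.28) and Cebpb (-1.04 ± 0.19), with edgeR adjusted p of 0.0451, 0.0254, 0.0326 and 0.0238. All 5 with a negative value were called higher with LPS in WT. In Ddit4 the mean in unstimulated knockout-labelled cells was 130 ± 26.5 normalised CPM, against 27.1 ± 2.35 in unstimulated WT and 143 ± 25.5 in knockout-labelled cells with LPS (SD, n = 2 each).

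Syvn1 was singled out by the order of its libraries: 58.7 and 57.3 with LPS lay above 54.2 and 52.4 without in WT, and 49.2 and 52.4 with LPS lay below 58.6 and 59.1 without in knockout-labelled cells. On library totals the WT libraries stood at 55.4 and 54.2 with and 58.1 and 57.7 CPM without LPS, so the opposite order was present only after TMM scaling. Its interaction was -0.34 ± 0.12 and did not pass (edgeR adjusted p = 0.161).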

How the results depend on the processing

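Of the 17 members called for LPS in WT, the count was 14 to 20 under other scalings, filters and tools and 9 to 17 with 1 library left out. For the knockout label without stimulation 7 became 0 with only the 2 groups compared, and 0 to 9 with 1 library left out. For the interaction 2 became 4 with DESeq2, and 0 to 4 with 1 library left out. Where 0 were called, LPS in knockout-labelled cells gave 3 without the filter, 5 with DESeq2 and 2 with the replicate block (0 to 2 with 1 library left out), the knockout label with LPS gave 1 without the filter and 3 with DESeq2 (0 to 1), and the tumoral comparison gave 1 without the filter, with DESeq2 and with the block (0 to 1). Scaling by library size alone moved the median of all genes for LPS in WT from -0.02 to -0.23, its split from 2609 higher and 2301 lower to 1689 and 3728, and that of the members from 3 and 14 to 2 and 18. For the knockout label without stimulation it moved the split of all genes from 1575 higher and 782 lower to 1282 and 1301. Over all alternatives the calls among all genes ran from 0 to 1088 in tumoral DCs, 2632 to 5417 for LPS in WT, 0 to 766 for LPS in knockout-labelled cells, 576 to 2735 for the label without and 0 to 153 with LPS, and 45 to 1076 for the interaction. The cause was not tested.

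Alternatives were run for the called members and the 7 genes named throughout, and among these signs turned only in values that were called neither before nor after. Of the other members, group means on library totals and after TMM scaling had opposite orders in Syvn1, Dnajb11 and Mthfd2 for LPS in WT, Mthfd2 and Trib3 for LPS in knockout-labelled cells, Creld2, Manf and Sesn2 for the label without LPS, and Canx, Dnajb11, Edem1 and Mthfd2 in tumoral DCs. With library size alone the turned values were Eif2ak3 for LPS in WT (-0.092), Ddit3 for LPS in knockout-labelled cells (-0.067), Xbp1 for the label with LPS (0.016) and Ern1 for the interaction (0.029). Ddit3 stood at -0.033 with upper-quartile scaling and at -0.0039 with the filter of 10 CPM in 2 libraries, and Xbp1 at 0.0068 with that filter and 0.012 with the replicate block. With 1 library left out, tumoral Ern1 ran from -0.54 to 0.19, Ddit3 from -0.12 to 0.58 and Hspa5 from -0.081 to 0.46. For LPS in WT, Eif2ak3 ran from -0.096 to 0.35, Atf4 from -0.46 to 0.056 and Hspa5 from -0.18 to 0.10. For LPS in knockout-labelled cells, Atf4 ran from -0.12 to 0.072 and Ddit3 from -0.17 to 0.17. For the label without LPS, Eif2ak3 ran from -0.063 to 0.38 and Atf4 from -0.49 to 0.023, and with LPS Xbp1 ran from -0.14 to 0.15. For the interaction, Ern1 ran from -0.19 to 0.018, Eif2ak3 from -0.067 to 0.37 and Atf4 from -0.088 to 0.42.

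Replicate numbers were not taken to pair the samples: the correlations of same-numbered deviations ran from -0.200 to 0.275 between BMDC groups, 3 of 6 being over 0.1, and were -0.0379 between tumoral groups. Replicate 2 was above replicate 1 in 13, 13, 12 and 11 of the 13 chaperones in WT, knockout-labelled, WT with LPS and knockout-labelled with LPS. With the number as a block 18 members were called for LPS in WT, 8 for the label without LPS, 2 for the interaction, 2 for LPS in knockout-labelled cells, 0 for the label with LPS and 1 in tumoral DCs. The block added Pdia4 and Ern1 and lost Ddit3 for LPS in WT, and added Ern1 for the label, Pdia6 and Hyou1 for LPS in knockout-labelled cells and Trib3 in tumoral DCs. A group left with 1 library is assumed to vary like the others. A planned description of protein ends was not run, as no protein table was used here. With 2 libraries a group, 2% of 1.5-fold, 22% of 2-fold and 92% of 4-fold changes were recovered in simulated tumoral counts, so most changes of 2-fold or less were missed.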
